A study of Homo sapiens with 12 samples.

Results

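The replication-dependent histone genes are the clustered genes that supply H1, H2A, H2B, H3 and H4 proteins while DNA is copied. They were taken as the protein-coding genes whose current symbol is H1-1 to H1-6 or begins with H2AC, H2BC, H3C or H4C, a rule that uses no measured value. In these data 69 such genes had a transcript in the matched table, out of 34290 genes of any kind and 19442 protein-coding genes. They comprised 6 H1 genes, 16 H2A genes, 19 H2B genes, 13 H3 genes and 15 H4 genes. Of these, 55 lie in the HIST1 cluster on chromosome 6 and 11 in the HIST2 cluster on chromosome 1. One more gene that the rule names, H2AC25, was not analysed here.

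Most mRNAs of these genes are unlike other mRNAs, because they carry no introns and end without a poly(A) tail. In place of the tail they have a short stem-loop that is bound by the protein SLBP, and a complex guided by the U7 small RNA directs the cut just after it. Histone mRNA rises in S phase, when the cofactor NPAT, phosphorylated by cyclin E and CDK2, acts at the clusters, and it is degraded quickly when DNA synthesis stops. Some genes of the family also make longer, polyadenylated or spliced transcripts, which are known from cells that divide slowly or have left the cell cycle.

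All samples carry HEK293T as their cell line label, which the titles of the inhibitor samples shorten. The line, long established from human embryonic kidney and easy to transfect, was used between passages 10 and 25. In the siRNA experiment, 3 samples received a control siRNA (siControl) and 3 an siRNA against POLR3A (siPOLR3A). Both were delivered with Lipofectamine RNAiMax, and RNA was collected after 2 days. POLR3A encodes the largest subunit of RNA polymerase III, the enzyme that makes transfer RNAs and other short RNAs. In the inhibitor experiment, 3 samples were exposed for 4 hours to the vehicle, 0.1% DMSO (DMSO), and 3 to 25 µM ML60218, a small-molecule inhibitor of RNA polymerase III (ML60218). The labels do not say whether the samples of a group came from separate cultures on separate days, so p-values measure only the spread between these samples. Libraries were made with a stranded mRNA kit. Kits of this kind keep RNA that carries a poly(A) tail, so most histone mRNA is not captured and the values describe the part of it that is.

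Libraries held 37008325 to 49479476 estimated reads. In CPM, reads scaled to the total on matched genes, the 69 genes took 78.5 to 83.5 in the siControl libraries, 64.2 to 66.7 in the siPOLR3A libraries, 100.1 to 106 in the DMSO libraries and 141 to 225 in the ML60218 libraries. All CPM given from here on were also scaled within each experiment by TMM, which adjusts for the composition of each library. POLR3A itself stood at 90.8 ± 3.56 CPM (SD, n = 3) in siControl and 17.6 ± 2.65 CPM in siPOLR3A, lower in every siPOLR3A library. For the labelled cell type, the tubule markers UMOD and SLC12A1 were below 0.1 TPM (a level scaled for transcript length) in every library, while AQP2 reached 0.157 TPM and LRP2 lay between 3.04 and 10.3 TPM. PTPRC, CD3E and HBB of blood and PECAM1 and CDH5 of endothelium were below 0.1 TPM in every library. The epithelial marker EPCAM lay between 1.32 and 4.09 TPM and VIM, a mesenchymal filament, between 267 and 435 TPM. The 4 neuronal markers summed to 167 to 190 TPM in siControl, 87.9 to 93.4 TPM in siPOLR3A, 121 to 126 TPM in DMSO and 143 to 158 TPM in ML60218. Most of that sum came from NEFL and NEFM, while RBFOX3 lay between 3.38 and 6.11 TPM and MAP2 between 0.249 and 0.956 TPM. The part of these markers in the histone values was not tested.

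The stem-loop is the feature that sets these mRNAs apart, and its letters tell the histone types apart to some degree. A stem of 6 base pairs and a loop of 4 bases that opens with TT was found in GENCODE models of 29 members. The lines below show it for genes on which the results turn, with the 16 bases of the stem-loop in capitals and up to 6 flanking bases on each side (GRCh38).

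H2AC6, chr6:26124669-26124684, plus strand: cccaaaGGCTCTTTTCAGAGCCccccta
H2AC19, chr1:149851574-149851589, plus strand: tcaaaaGGCTCTTTTCAGAGCCacccac
H2BC4, chr6:26123472-26123487, minus strand: cccaaaGGCTCTTTTAAGAGCCacccag
H2BC15, chr6:27839090-27839105, plus strand: cccaaaGGCTCTTTTCAGAGCCactcag
H2BC21, chr1:149886188-149886203, minus strand: tccaaaGGCTCTTTTCAGAGCCacccac
H3C15, chr1:149853105-149853120, plus strand: ccaaaaGGCTCTTTTCAGAGCCacccac
H4C14, chr1:149833032-149833047, plus strand: cccaaaGGCCCTTTTTAGGGCCgaccac
H4C15, chr1:149860769-149860784, minus strand: cccaaaGGCCCTTTTTAGGGCCgaccac
H4C16, chr12:14770724-14770739, minus strand: ccaaaaGGCCCTTTTCAGGGCCcccaaa

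The form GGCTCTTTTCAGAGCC was shared by 16 genes, of which 5 were H2A genes, 8 H2B genes and 3 H3 genes. The form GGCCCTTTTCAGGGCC was found in 5 genes, all of type H4. Another form, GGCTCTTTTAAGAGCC, was held by 4 genes, among them H2BC4 and H2BC5. The form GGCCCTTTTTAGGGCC was held by H4C14, H4C15 and H4C9, and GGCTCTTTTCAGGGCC by H2AC11. For the other 40 members no match was found in the models searched. One of them is H2BC12, whose GENCODE model is 381 bases long, shorter than the 495 bases of the model quantified.

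Per unit of length, H2BC12 (formerly HIST1H2BK) was the member with the highest level, with a mean of 84.4 TPM over the 12 libraries, which was 30.2% of the summed TPM of all members. It had the highest mean in each of the 4 groups, and the order below it differed between groups. In siControl it was followed by H1-2 at 20.4 ± 1.99 TPM, H2AC19 at 16.8 ± 2.61 TPM and H4C15 at 15.97 ± 2.45 TPM (SD, n = 3), and the libraries of neighbours among these 3 overlapped. In DMSO the next were H2AC19 at 27.0 ± 1.57 TPM and H1-2 at 25.1 ± 1.31 TPM, which also overlapped. In ML60218 they were H4C15 at 57.7 ± 27.9 TPM and H4C14 at 43.0 ± 23.6 TPM, again with overlap. H2BC12 encodes an H2B protein and H1-2 a linker histone, which binds DNA where it enters and leaves the nucleosome. At the other end, 36 members averaged fewer than 10 estimated reads a library, and 7 had no read in any library. A count of 0 in a library allows up to 3 reads, so these members were below what the depth can show rather than shown to be silent.

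Several members are copies that reads tell apart poorly or not at all. H2AC18 and H2AC19, H3C14 and H3C15, and H4C14 and H4C15 are pairs that lie as mirror images on chromosome 1, on opposite strands. Every stretch of 31 bases in the H2AC18 model also occurs in the model of H2AC19, and 98.4% of those of H4C14 occur in H4C15. In 11 of the 12 libraries, all reads of the H2AC18 and H2AC19 pair were assigned to just 1 of the copies. H2AC19 had 3.92, 3.23 and 3.03 CPM in siControl and 3.55, 0 and 0 CPM in siPOLR3A, while H2AC18 had 0 CPM in all siControl libraries and 0, 3.62 and 3.85 CPM in siPOLR3A. Their sum overlapped between the groups, with 3.39 ± 0.466 CPM in siControl and 3.67 ± 0.156 CPM in siPOLR3A (SD, n = 3). H3C14 and H3C15 were split in this way in 12 of 12 libraries, and H4C11 and H4C12 in 11 of 12. Values of single copies in these pairs are therefore uncertain, and sums over a pair or a histone type are given beside them. Outside these pairs, the GENCODE model of H2BC12 shares 86.3% of its 31-base stretches with other members. Its closest member is H2BC12L, with 74.4% shared, and H2BC12L was assigned at most 2.26 reads in a library.

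**Figure D1:**
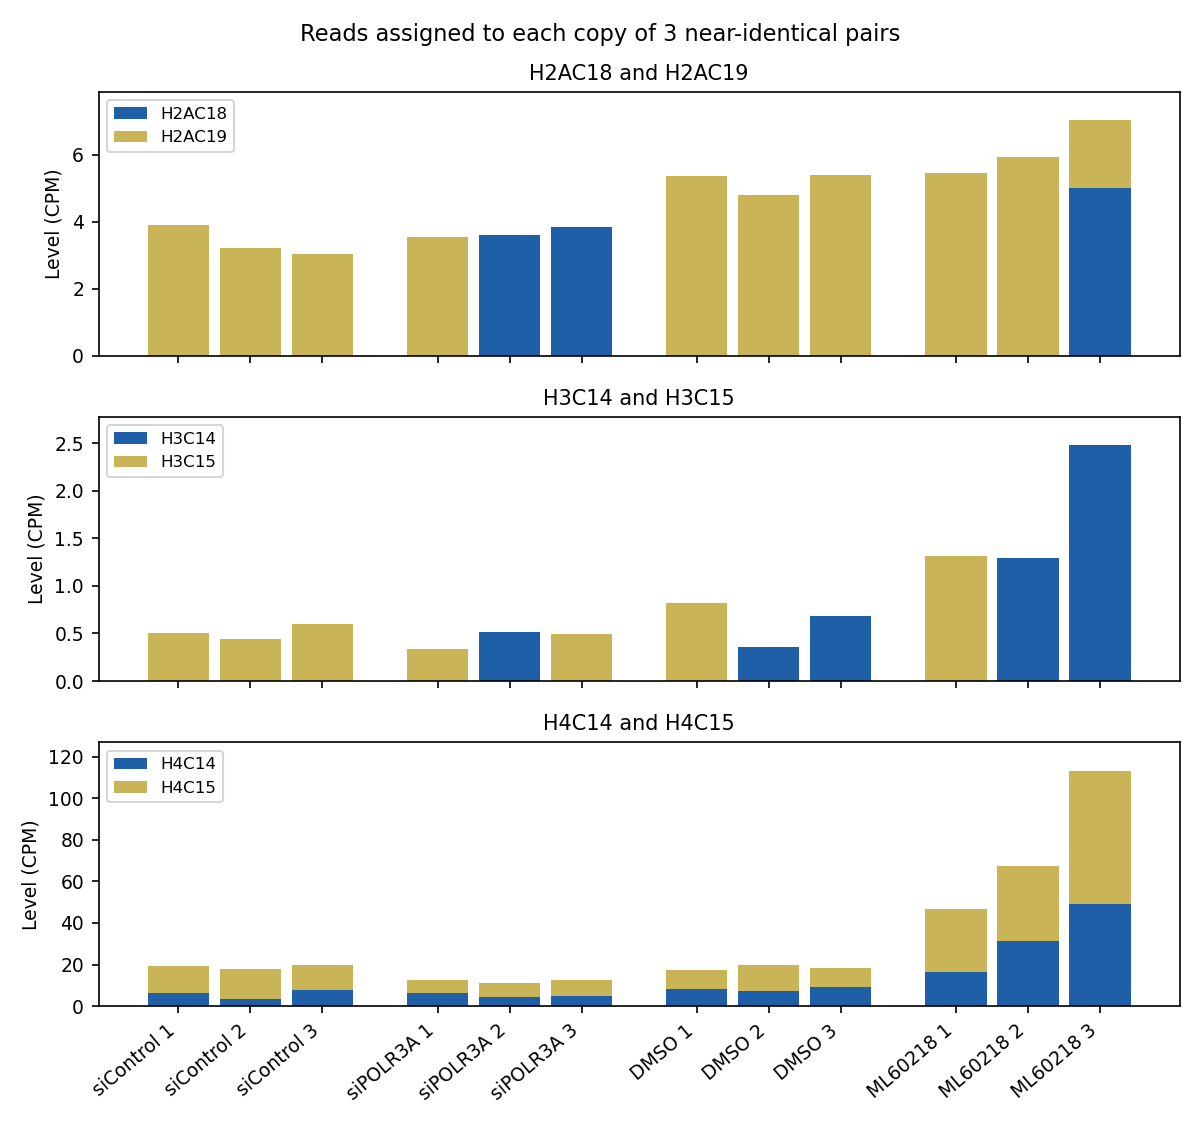
Level in CPM (vertical axes) assigned to each copy of 3 near-identical pairs in each of the 12 libraries (stacked bars). In the H2AC18 and H2AC19 pair and the H3C14 and H3C15 pair the reads of a library go to 1 copy in 11 and 12 of 12 libraries, while the bar height, the sum of both copies, varies far less between replicates; the sum of H4C14 and H4C15 is highest in the 3 ML60218 libraries, at 47.0, 67.5 and 113 CPM.

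Depletion of POLR3A went with fewer histone reads, and H2B and H4 carried the difference. The sum over all 69 genes was 84.1, 80.6 and 84.4 CPM in the siControl libraries and 63.1, 63.3 and 65.6 CPM in the siPOLR3A libraries. The groups did not overlap, and the sum fell by 0.38 on the log2 scale (SE 0.031, adjusted p = 1.66e-07). The H2B sum was 37.4, 35.1 and 36.0 CPM against 25.5, 26.5 and 27.4 CPM (log2 fold change −0.45 with SE 0.045, adjusted p = 1.15e-06). The H4 sum was 24.7, 23.3 and 24.7 CPM against 17.0, 16.2 and 17.5 CPM (log2 fold change −0.52 with SE 0.054, adjusted p = 1.57e-06). Neither H2B nor H4 overlapped between the groups. When all 12 libraries shared 1 estimate of the spread, the calls for H4 (−0.51, adjusted p = 0.155) and for the sum over all members (−0.37, adjusted p = 0.0563) were lost. For H1 (−0.14, SE 0.074, adjusted p = 0.135), H2A (−0.15, SE 0.077, adjusted p = 0.11) and H3 (−0.14, SE 0.10, adjusted p = 0.273) the log2 fold changes did not pass the test, although H1 and H2A libraries did not overlap. In bulk RNA kept by its poly(A) tail, fewer cells in S phase, less histone mRNA per cell and a smaller polyadenylated share cannot be told apart.

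**Figure D2:**
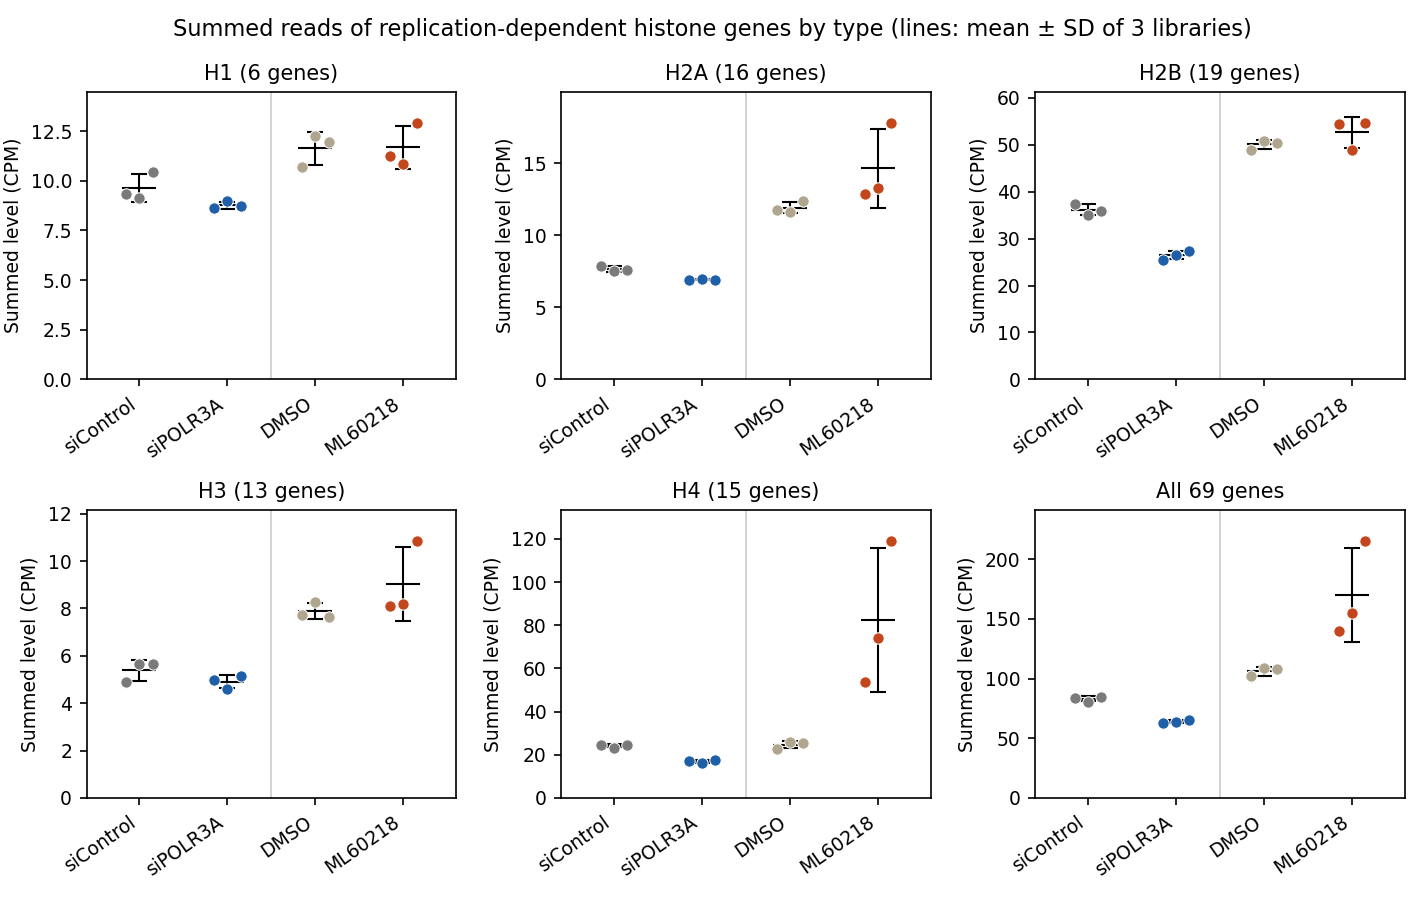
Summed level in CPM (vertical axes) of each histone type and of all 69 genes, with 1 point per library and lines for the mean ± SD of 3 libraries; the siRNA and the inhibitor experiments were scaled separately. After siPOLR3A the H2B and H4 points lie below siControl without overlap, and with ML60218 the H4 points lie at 53.6, 74.2 and 119 CPM, above all DMSO libraries.

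Of the 69 members, 28 had enough reads to be tested in the siRNA experiment. None was called higher at an adjusted p under 0.05 with edgeR, where 27.4% of all 15394 genes tested were, and 7 were called lower, where 29.2% of all genes were. In either direction 56.6% of all genes were called, so the share of members called was not above that of genes at large, and 8 members had an unadjusted p under 0.05. The median log2 fold change was −0.36 over the 28 members and 0.0054 over all genes, and 24 of the 28 were negative. The tested members are those with most reads, and the median rests on them alone.

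The 7 genes called lower were 5 of type H2B (H2BC4, H2BC11, H2BC12, H2BC15 and H2BC21), 1 of type H2A (H2AC6) and 1 of type H4 (H4C15). H2BC12 had 15.6, 14.7 and 16.02 CPM in siControl and 9.68, 11.2 and 10.98 CPM in siPOLR3A, so that all siPOLR3A libraries were lower. Its log2 fold change came to −0.54 with SE 0.07 and an adjusted p of 1.52e-05. H2BC15 (HIST1H2BN) is an H2B gene with long spliced models. As annotated, it overlaps H2AC16 on the same strand, and H2AC15 and the pseudogene H2BC16P on the opposite strand. The gene had 6.13, 6.15 and 5.21 CPM against 3.70, 3.03 and 3.58 CPM. It fell by 0.76 on the log2 scale (SE 0.12, adjusted p = 7.12e-05), again with no overlap. H2BC21 (HIST2H2BE), which is known to give polyadenylated mRNA in resting and differentiated cells, had 4.49, 3.42 and 4.59 CPM against 2.87, 2.73 and 3.18 CPM. The groups were apart, with a log2 change of −0.51 ± 0.14 (SE, adjusted p = 0.00613).

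H2BC11 had 1.83, 1.92 and 1.92 CPM in siControl and 1.11, 1.27 and 1.05 CPM in siPOLR3A (log2 fold change −0.72 with SE 0.17, adjusted p = 0.00219). H2AC6, an H2A gene whose reads fell mostly on a spliced model, had 1.65, 1.72 and 2.02 CPM against 0.828, 1.11 and 1.11 CPM and a log2 change of −0.83 ± 0.19 (SE, adjusted p = 0.00191). For both genes every siPOLR3A library was below every siControl library. For H2AC6 the call was lost with limma on log2 TPM, where it was −0.34 on the log2 scale (adjusted p = 0.547). H2BC4 was near the depth limit, with 0.868, 0.695 and 0.596 CPM against 0.440, 0.379 and 0.495 CPM and a log2 change of −0.71 ± 0.27 (SE, adjusted p = 0.0391). Its call was lost in 10 of 15 alternatives, with adjusted p up to 0.213.

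H4C15 had the largest called change after siPOLR3A. It had 13.4, 14.5 and 12.4 CPM in siControl and 5.90, 6.41 and 7.75 CPM in siPOLR3A, without overlap (log2 fold change −1.01 with SE 0.099, adjusted p = 2.83e-06). Its copy H4C14 had 6.14, 3.45 and 7.60 CPM against 6.55, 4.57 and 4.66 CPM, which overlapped, with a log2 change of −0.12 ± 0.35 (SE, adjusted p = 0.794). Because reads pass between the copies, their sum is given too: it was 19.5, 17.9 and 20.0 CPM against 12.4, 10.98 and 12.4 CPM (log2 fold change −0.68 with SE 0.068, adjusted p = 1.04e-06). In the fit of all 12 libraries that call was lost (−0.68, adjusted p = 0.102). When both genes were left out, the H4 sum did not pass the test (log2 fold change −0.03, SE 0.10, adjusted p = 0.81). The sum over the remaining 67 members was still lower without them, by −0.30 on the log2 scale (SE 0.033, adjusted p = 2.77e-06).

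Among the types with no called sum, H1-2 was the member with most reads, at 8.44, 7.71 and 8.89 CPM in siControl and 7.40, 7.63 and 7.37 CPM in siPOLR3A. The groups did not overlap but its log2 fold change of −0.16 (SE 0.08) did not pass the test (adjusted p = 0.104). The second H1 gene tested, H1-4, overlapped, with means of 0.968 ± 0.294 and 0.961 ± 0.140 CPM (SD, n = 3). The H3 genes with most reads, H3C6 and H3C10, also overlapped between the groups, with log2 fold changes of −0.24 (SE 0.13, adjusted p = 0.127) and −0.07 (SE 0.23, adjusted p = 0.813). H2AC20, at −0.91 (SE 0.40, adjusted p = 0.0644), and H4C3, at 0.36 (SE 0.20, adjusted p = 0.148), mark the range of the uncalled genes outside the copy pairs.

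With ML60218 the histone reads rose, and nearly all of the rise was on the copies H4C14 and H4C15. The H4 sum was 22.8, 25.8 and 25.4 CPM in the DMSO libraries and 53.6, 74.2 and 119 CPM in the ML60218 libraries. All ML60218 libraries were above all DMSO libraries, and they differed among themselves more than 2-fold, with replicate 3 the highest. The log2 fold change came to 1.74 with SE 0.35 and an adjusted p of 0.0217. Without ML60218 replicate 3 it was 1.37 (adjusted p = 0.00856), whereas without DMSO replicate 1, 2 or 3, or without ML60218 replicate 2, the adjusted p lay between 0.052 and 0.0854. The sum over all members was 102, 109 and 108 CPM against 140.2, 155 and 215 CPM (log2 fold change 0.68 with SE 0.18, adjusted p = 0.044). Without DMSO replicate 1, 2 or 3 or ML60218 replicate 2 its adjusted p lay between 0.074 and 0.134, and without H4C14 and H4C15 it was 0.10 on the log2 scale (SE 0.053, adjusted p = 0.153).

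H4C15 had 8.93, 12.2 and 9.14 CPM in DMSO and 30.7, 36.1 and 64.3 CPM in ML60218 (log2 fold change 2.12 with SE 0.37, adjusted p = 0.0147). H4C14 had 8.24, 7.42 and 9.10 CPM against 16.2, 31.4 and 48.95 CPM (log2 fold change 1.97 with SE 0.47, adjusted p = 0.0355). Neither gene overlapped between the groups, and for both replicate 3 was the highest library. The pair summed to 17.2, 19.6 and 18.2 CPM against 47.0, 67.5 and 113 CPM (log2 fold change 2.05 with SE 0.39, adjusted p = 0.0193). The spread of the ML60218 libraries limits the test: over 16 alternatives the adjusted p of H4C15 ran up to 0.0656 and that of H4C14 up to 0.122, with no change of direction, and the pair's was up to 0.0778 without 1 library. The 13 other H4 genes together had 5.61, 6.18 and 7.19 CPM in DMSO and 6.66, 6.69 and 5.58 CPM in ML60218, which overlapped, and their log2 fold change was −0.01 (SE 0.12, adjusted p = 0.972).

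Of the 33 members tested with ML60218, 6 were called higher, where 18.1% of all 15451 genes tested were, and 1 was called lower, where 20.9% of all genes were. The 7 calls are a smaller share of the members than the 39.0% called of all genes, and 10 members had an unadjusted p under 0.05. The median log2 fold change was 0.09 over the 33 members and 0.0054 over all genes. H4C14 and H4C15 were joined by 4 H2B genes (H2BC6, H2BC15, H2BC21 and H2BC26), and the gene called lower was H2BC12. The number of calls was 4 without DMSO replicate 1 and 11, with 6 higher and 5 lower, without ML60218 replicate 1.

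H2BC15 had 4.12, 4.52 and 4.21 CPM in DMSO and 6.08, 7.30 and 8.74 CPM in ML60218 (log2 fold change 0.79 with SE 0.13, adjusted p = 0.00158). H2BC21 had 5.09, 5.99 and 5.76 CPM against 8.47, 7.21 and 10.2 CPM (log2 fold change 0.62 with SE 0.13, adjusted p = 0.00474). H2BC26 (HIST3H2BB), the one gene of the HIST3 locus analysed here, had 2.11, 2.19 and 2.52 CPM against 4.06, 2.82 and 4.40 CPM (log2 fold change 0.73 with SE 0.17, adjusted p = 0.00863). In each of these genes the ML60218 libraries were above the DMSO libraries without overlap, and each call held in all 16 alternatives. H2BC6 had 0.571, 0.837 and 1.13 CPM against 1.26, 1.44 and 1.35 CPM, and its log2 fold change of 0.67 (SE 0.24) sat at the threshold (adjusted p = 0.0499), with the call lost in 7 of 16 alternatives.

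H2BC12 moved the other way. It had 25.8, 25.9 and 25.4 CPM in DMSO and 21.6, 20.6 and 18.1 CPM in ML60218, without overlap (log2 fold change −0.36 with SE 0.067, adjusted p = 0.00272). On the length scale its level was 113 to 123 TPM in DMSO and 98.2 to 105 TPM in ML60218. The H2B sum, at 48.9, 50.9 and 50.4 CPM against 54.4, 48.9 and 54.7 CPM, overlapped and was not called (log2 fold change 0.07, SE 0.051, adjusted p = 0.288). When H2BC12 was left out the other H2B genes summed to 23.1, 25.0 and 25.0 CPM against 32.8, 28.3 and 36.6 CPM (log2 fold change 0.42 with SE 0.088, adjusted p = 0.00612). Leaving out H2BC12 and the H4 pair were choices made after the values were seen.

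The H1, H2A and H3 sums did not pass the test with ML60218. Their log2 fold changes were 0.01 (SE 0.087, adjusted p = 0.954), 0.30 (SE 0.12, adjusted p = 0.0777) and 0.20 (SE 0.12, adjusted p = 0.202). Without ML60218 replicate 1 the H2A sum was called, at 0.39 (adjusted p = 0.0321), and DESeq2 called it at 0.30 (adjusted p = 0.0477). H1-2 had 9.13, 10.2 and 10.2 CPM in DMSO and 9.07, 9.70 and 10.4 CPM in ML60218, which overlapped. H2AC6 had 3.10, 3.96 and 3.13 CPM against 3.81, 4.62 and 7.61 CPM, with a log2 change of 0.66 ± 0.27 (SE, adjusted p = 0.095), and 4 of 16 alternatives called it higher (adjusted p of 0.0198 to 0.0458). H3C6 (4.83 ± 0.371 against 4.72 ± 0.539 CPM) and H3C10 (1.74 ± 0.196 against 2.07 ± 0.25 CPM, SD, n = 3) overlapped between the groups. The pair H3C14 and H3C15, whose sum was 0.819, 0.362 and 0.682 CPM in DMSO and 1.32, 1.30 and 2.48 CPM in ML60218, was called as a pair at a log2 change of 1.47 ± 0.36 (SE, adjusted p = 0.0127). In GENCODE the H3C14 and H3C15 genes, with models of 1656 bases, overlap H4C14 and H4C15 on the opposite strand. The models quantified were shorter, at 522 and 518 bases, and a model that ends near the stem-loop does not reach the overlap.

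**Figure D3:**
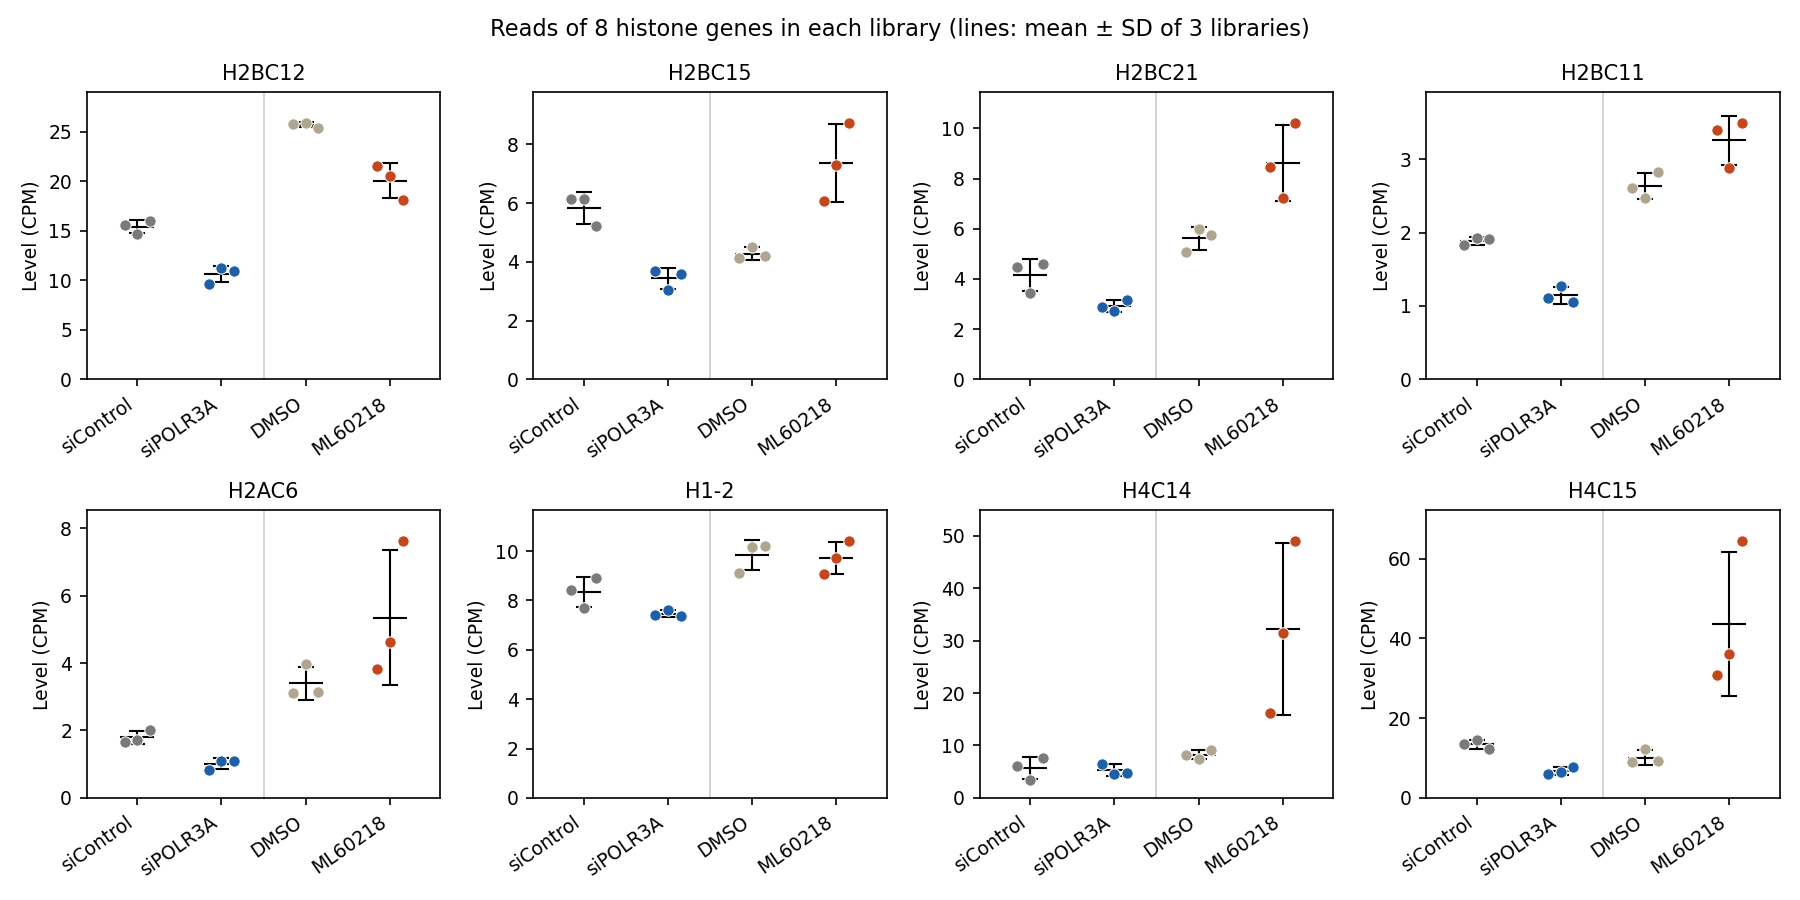
Level in CPM (vertical axes) of 8 histone genes, with 1 point per library and lines for the mean ± SD of 3 libraries; the experiments were scaled separately. H2BC15 and H2BC21 are lower after siPOLR3A and higher with ML60218, H2BC12 is lower in both, and H4C14 and H4C15 reach 48.95 and 64.3 CPM in ML60218 replicate 3.

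The reads of these genes fell on 2 kinds of transcript model. Of the 94 models, 65 are protein-coding, at most 800 bases long and of another length than in GENCODE release 29. They are called the short class. All 65 entered it by length, so the place of their 3′ end relative to a stem-loop was not determined. The other 29 are extended, meaning that they run on past the stem-loop or are spliced. The extended class held 52.2%, 50.6% and 52.6% of the histone reads in siControl and 48.3%, 44.4% and 47.5% in siPOLR3A. It held 43.0%, 45.3% and 43.3% in DMSO and 58.3%, 65.9% and 73.7% in ML60218. In both experiments the groups did not overlap, and the exact two-sided permutation test gave p = 0.1, the smallest that 3 against 3 allows.

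After siPOLR3A both classes were lower. The extended class had 43.9, 40.8 and 44.4 CPM against 30.4, 28.1 and 31.1 CPM (log2 fold change −0.53 with SE 0.048, adjusted p = 4.3e-07), a call that the fit of all 12 libraries did not make (−0.52, adjusted p = 0.0895). The short class had 40.3, 39.8 and 40.03 CPM against 32.6, 35.2 and 34.5 CPM (log2 fold change −0.23 with SE 0.04, adjusted p = 0.000187). Without H2BC12 the latter was −0.07 (SE 0.047, adjusted p = 0.227), so the call in that class rested on 1 gene. The extended class was still lower without H4C14 and H4C15, at −0.41 (SE 0.053, adjusted p = 1.24e-05).

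With ML60218 the sums of the classes parted, but the classes also differ in the genes they hold. H2BC12 and H1-2 have only a short model, and H4C14 and H2BC21 only extended models. The split is also only as good as the estimate per transcript. The extended class rose from 43.8, 49.3 and 46.7 CPM to 81.8, 102 and 159 CPM (log2 fold change 1.30 with SE 0.29, adjusted p = 0.0286). Its adjusted p lay between 0.061 and 0.103 when DMSO replicate 1, 2 or 3 or ML60218 replicate 2 was left out. The short class overlapped, at 58.1, 59.5 and 61.1 CPM against 58.5, 53.0 and 56.5 CPM (log2 fold change −0.09, SE 0.046, adjusted p = 0.155). Within that class H2BC12 fell, while the H4C15 model of 396 bases rose. It had 15.9, 18.6 and 8.93 estimated reads in DMSO and 33.8, 43.4 and 104.9 in ML60218. Without H4C14 and H4C15 the extended class still rose, from 27.1, 30.2 and 28.7 CPM to 35.7, 36.1 and 47.6 CPM, by 0.48 on the log2 scale (SE 0.12, adjusted p = 0.02). Most reads of the pair lay on single spliced models that are annotated for nonsense-mediated decay, a pathway of mRNA degradation. In the H4C15 and H4C14 models concerned, 1314 and 1167 bases follow the stem-loop. The H4C15 model of 1694 bases had 325, 498 and 361 estimated reads in DMSO and 1061, 1237 and 2727 in ML60218. The H4C14 model of 1547 bases had 279, 292 and 332 against 506, 985 and 1922. All of the 31-base stretches of the H4C14 model occur in the H4C15 model, and 91.2% of those of the H4C15 model occur in the H4C14 model. Reads from the shared stretches cannot be divided. Over all genes, models annotated for nonsense-mediated decay took 2.46% to 2.49% of the reads in DMSO and 2.64% to 2.74% in ML60218, and retained-intron models 4.45% to 4.65% and 4.66% to 5.10%; their part in the histone result was not tested.

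**Figure D4:**
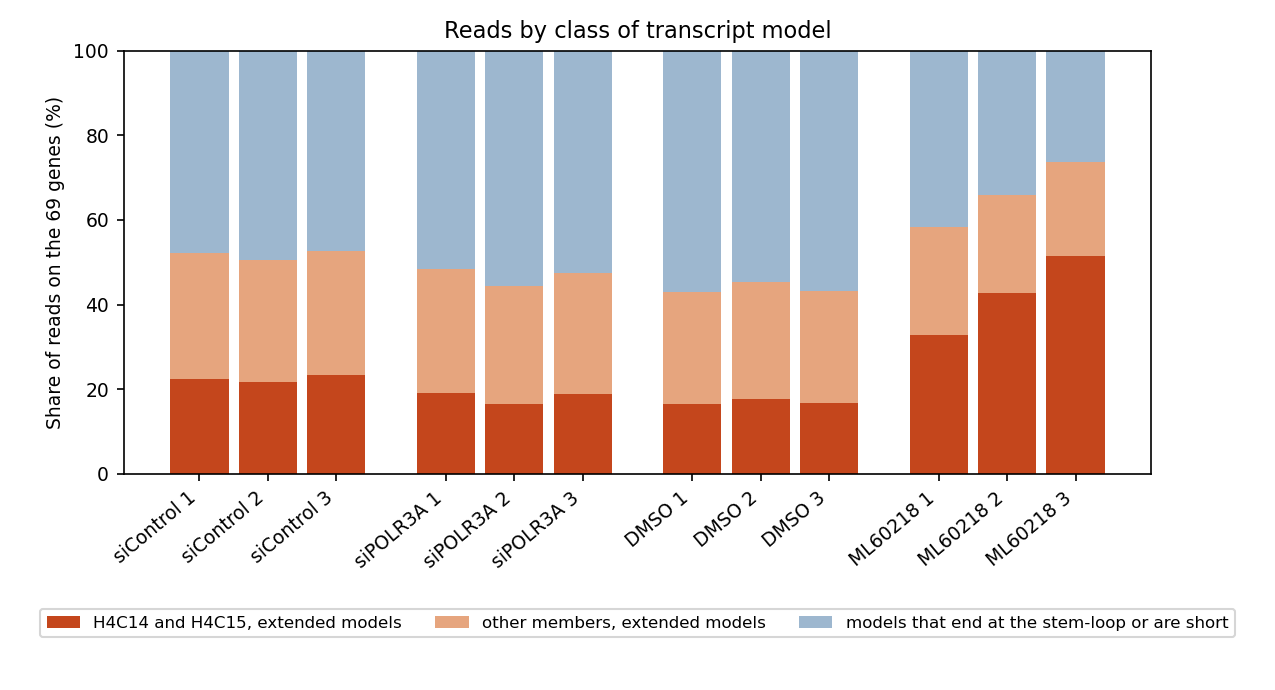
Share of the reads on the 69 genes, in percent (vertical axis), by class of transcript model in each library (stacked bars that sum to 100.0%). Extended models take 43.0% to 45.3% in DMSO and 58.3% to 73.7% in ML60218, most of the gain being on H4C14 and H4C15.

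The response to siPOLR3A differed from the response to ML60218 when the 2 effects were compared in 1 fit of all 12 libraries. The agents, the times and the control groups differ between the experiments, so the comparison does not separate them. The siPOLR3A effect minus the ML60218 effect was −2.25 for H4 (SE 0.37, adjusted p = 0.000955), −0.52 for H2B (SE 0.066, adjusted p = 8.82e-06) and −0.45 for H2A (SE 0.14, adjusted p = 0.0158), all on the log2 scale. For H1 it was −0.14 (SE 0.12, adjusted p = 0.345) and for H3 −0.33 (SE 0.16, adjusted p = 0.0895), neither of which passed the test, although H3 was called without ML60218 replicate 1 (−0.41, adjusted p = 0.0415). Of 35 members tested, 8 differed in the negative direction, where 26.4% of all 15770 genes did, and 1 in the positive direction, where 24.5% did. In all 50.9% of genes were called, against 9 of the 35 members, and 10 members had an unadjusted p under 0.05.

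The 8 genes with a negative difference were H2AC6, H2BC6, H2BC11, H2BC15, H2BC21, H4C14, H4C15 and H4C16. The largest were H4C15 (−3.12, SE 0.41, adjusted p = 0.000226) and H4C14 (−2.09, SE 0.61, adjusted p = 0.0199), the latter not called without siControl replicate 3 (−1.82, adjusted p = 0.0566). H2BC15 differed by −1.54 (SE 0.18, adjusted p = 3.93e-06) and was called in opposite directions by the experiments, as were H2BC21 (−1.13, SE 0.20, adjusted p = 0.000177) and H4C15. For H2BC12, lower in both, the difference of −0.17 (SE 0.10) did not pass the test (adjusted p = 0.167), though it did without ML60218 replicate 3 (−0.24, adjusted p = 0.0369). H3C12 was the gene with a positive difference (2.08, SE 0.66, adjusted p = 0.0149), which DESeq2 did not call (2.14, adjusted p = 0.0776). It had 0.030, 0.083 and 0.052 CPM in siControl and 0.155, 0.189 and 0.204 CPM in siPOLR3A, too few reads to be tested there. As annotated, H3C12 overlaps H2AC17 on the same strand, and 42.4% of the 31-base stretches of its 2 models also occur in that gene. All H3C12 reads lay on its intronless model of 512 bases, and none on its spliced model.

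**Figure D5:**
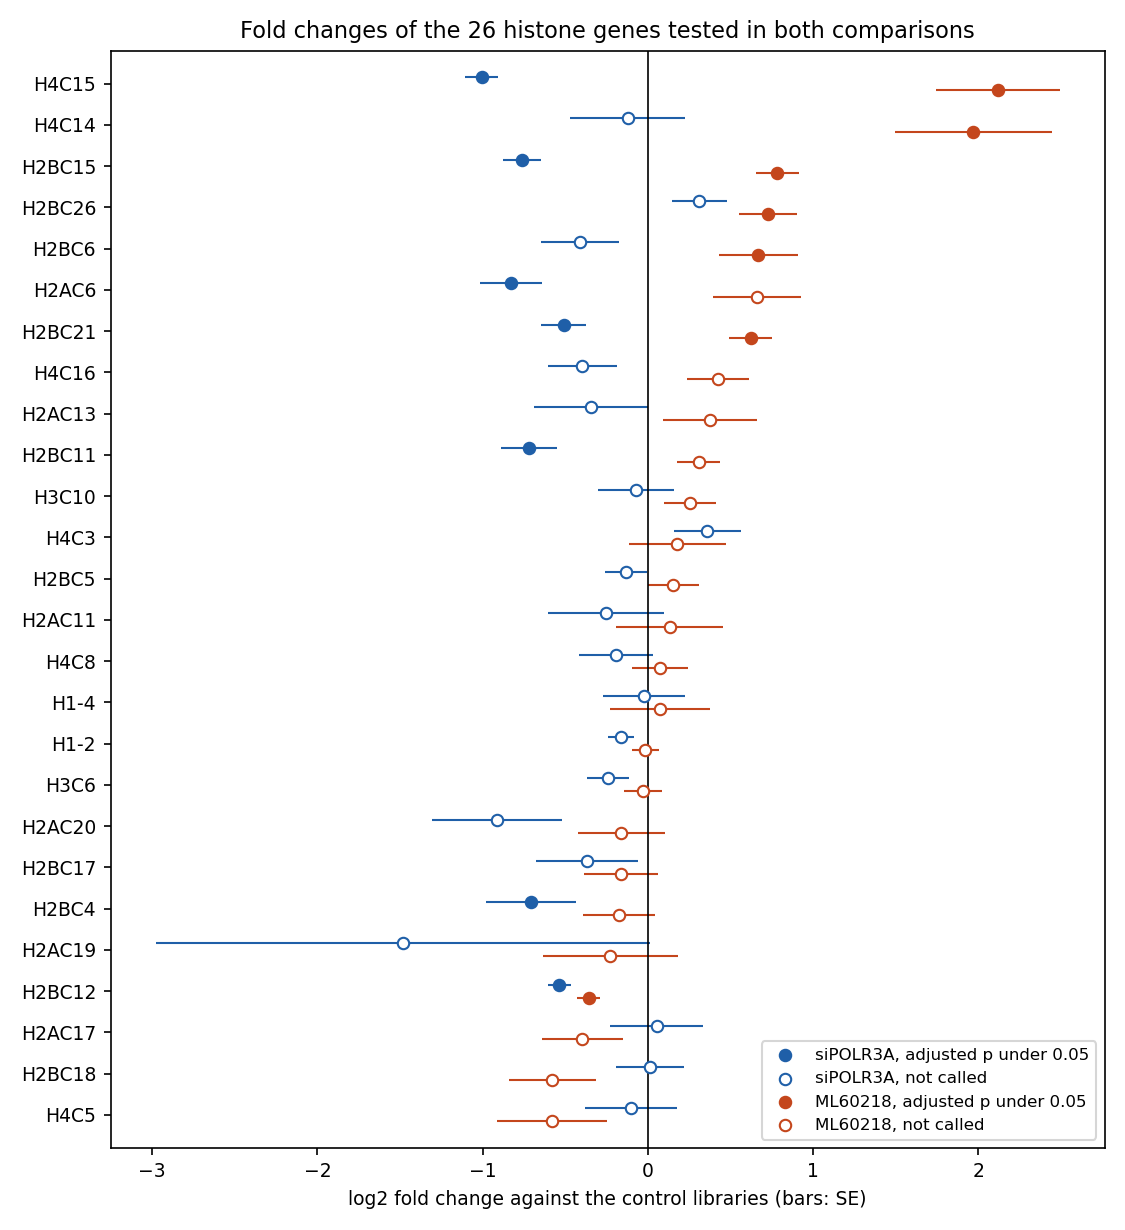
log2 fold change (horizontal axis, bars for SE) of the 26 histone genes tested in both experiments, in the order of the ML60218 values, with filled points for adjusted p under 0.05. H4C15, H2BC15 and H2BC21 have filled points on opposite sides of 0, and H2BC12 has filled points on the negative side for both.

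Promoters of these genes share motifs, and the genes that changed were not all of one promoter kind. In RefSeq windows from 250 bases before to 50 after the start (GRCh38.p14), available for 67 promoters of members, the TATA box letters TATAAA occurred on either strand in 67.2%, against 11.5% of all 35116 promoters. The CCAAT box letters CCAAT occurred in 85.1% against 34.6%, in every window of the H1, H2A, H2B and H3 genes and in 23.1% of the H4 windows. The octamer ATTTGCAT, known from H2B promoters, occurred in 75.0% of the H2B windows, 73.3% of the H2A windows and 1.77% of all. The stretches of 250 bases before the start are shown for H2BC12, lower in both experiments, for H2BC15 and H2BC21, which were called in opposite directions, and for H4C14, with these motifs in capitals on either strand.

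H2BC12, chr6:27146859-27147108, minus strand: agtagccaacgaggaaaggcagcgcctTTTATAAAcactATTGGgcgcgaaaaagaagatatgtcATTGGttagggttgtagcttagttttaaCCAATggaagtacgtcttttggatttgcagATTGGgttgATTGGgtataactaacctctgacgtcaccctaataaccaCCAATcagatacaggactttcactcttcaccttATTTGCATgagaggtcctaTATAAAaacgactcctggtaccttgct
H2BC15, chr6:27838319-27838568, plus strand: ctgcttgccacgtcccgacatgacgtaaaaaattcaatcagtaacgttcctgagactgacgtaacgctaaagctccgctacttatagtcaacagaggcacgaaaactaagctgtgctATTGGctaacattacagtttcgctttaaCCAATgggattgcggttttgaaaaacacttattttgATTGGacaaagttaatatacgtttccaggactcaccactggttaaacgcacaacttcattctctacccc
H2BC21, chr1:149886683-149886932, minus strand: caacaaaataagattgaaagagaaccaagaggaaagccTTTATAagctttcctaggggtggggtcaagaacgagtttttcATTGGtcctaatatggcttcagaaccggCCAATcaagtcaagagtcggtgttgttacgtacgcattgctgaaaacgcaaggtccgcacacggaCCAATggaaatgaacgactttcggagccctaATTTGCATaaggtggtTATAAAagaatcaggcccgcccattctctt
H4C14, chr1:149832407-149832656, plus strand: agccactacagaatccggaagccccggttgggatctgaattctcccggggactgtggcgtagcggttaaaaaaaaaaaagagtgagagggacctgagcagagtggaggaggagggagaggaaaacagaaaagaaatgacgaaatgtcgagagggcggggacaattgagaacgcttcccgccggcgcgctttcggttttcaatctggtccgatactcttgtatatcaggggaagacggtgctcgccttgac

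The H2BC12 and H2BC21 windows held the octamer, TATAAA and CCAAT. The H2BC15 window held CCAAT but neither TATAAA nor the octamer in these letters. H4C14 held none of the 3 motifs, and its window was identical to that of H4C15 at 300 of 300 positions. A match or its absence describes these letters only, and no binding was measured.

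The factors that make, process and store histone mRNA moved in both directions, and many genes of every kind did so. The counts below can be read against 56.6% of all genes called after siPOLR3A and 39.0% with ML60218. Of 17 tested genes for histone gene transcription, 5 were called higher and 4 lower after siPOLR3A, and 2 higher and 7 lower with ML60218. NPAT, the coactivator of the clusters, had a log2 change of −0.09 ± 0.03 (SE, adjusted p = 0.0209) after siPOLR3A and −0.03 (SE 0.047, adjusted p = 0.625) with ML60218. CCNE1, cyclin E, rose by 0.75 after siPOLR3A and fell by 0.48 with ML60218 on the log2 scale, whereas CDC25A, a phosphatase that activates CDK2, fell by 0.98 after siPOLR3A.

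Of 24 tested genes for 3′ processing, 10 were higher and 5 lower after siPOLR3A, and 5 higher and 11 lower with ML60218. SLBP had a log2 change of 0.14 ± 0.028 (SE, adjusted p = 0.000637) after siPOLR3A, from 88.5 ± 1.63 to 97.5 ± 1.38 CPM (SD, n = 3), and of −0.19 (SE 0.051, adjusted p = 0.0147) with ML60218. ZNF473, a zinc-finger protein of the U7 complex, rose in both, by 0.77 (adjusted p = 8.34e-09) and 0.94 (adjusted p = 0.0013). NCBP2, a subunit of the cap-binding complex, fell by 0.92 after siPOLR3A, and SNRPG and SNRPF, ring proteins of small nuclear RNPs, fell by 0.60 and 0.57 with ML60218. Of 22 tested genes for histone mRNA decay, 3 were higher and 10 lower after siPOLR3A, among them TUT7, which adds uridines to histone mRNA (−0.52). With ML60218, 6 were higher and 5 lower, among them the exonuclease XRN1 at 0.31 and the decay factor LSM1 at −0.37.

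Of 45 tested genes for S phase and DNA replication, 9 were higher and 24 lower after siPOLR3A, and 8 higher and 18 lower with ML60218. The helicase subunit MCM4 fell by 0.54 after siPOLR3A. With ML60218 the nuclease FEN1 fell by 0.56 (adjusted p = 0.00052). Of 16 tested histone chaperones, 5 were higher and 8 lower after siPOLR3A, with SSRP1 of the FACT complex at −0.88 and CHAF1B of the chromatin assembly factor at −0.87. With ML60218, 1 was higher and 8 lower, ASF1A at −0.26 having the largest called change. The CDK inhibitors and G1 cyclins divided into 4 higher and 5 lower of 12 after siPOLR3A and 1 higher and 4 lower with ML60218. The retinoblastoma relative RBL2 (−1.26) and cyclin CCND2 (−1.06) were lowest after siPOLR3A.

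The histone variants are encoded outside the set of replication-dependent genes, and most of their mRNAs are polyadenylated. Of 11 tested, 3 were higher and 4 lower after siPOLR3A, and 2 higher and 7 lower with ML60218. H3-3A, which encodes the variant H3.3, rose from 173 ± 6.67 to 428 ± 9.06 CPM (SD, n = 3) after siPOLR3A (log2 fold change 1.31 with SE 0.029, adjusted p = 3.16e-13). MACROH2A2, a large H2A variant, fell from 53.0 ± 1.78 to 19.02 ± 1.18 CPM (log2 fold change −1.48 with SE 0.049, adjusted p = 1.17e-11). With ML60218 the centromere variant CENPA fell by 0.65 (SE 0.077, adjusted p = 0.000349) and H2AX by 0.44 (SE 0.06, adjusted p = 0.000635). A list of 15 RNAs known to lack a poly(A) tail had 0 genes with a transcript in the matched table, so capture of such RNA could not be gauged.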

How the data were processed

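Messenger RNA was sequenced in 12 libraries, and titles gave their 4 groups. Per transcript, the deposited table holds estimated counts and TPM (194142 transcripts). Demultiplexing with bcl2fastq 2.20, Trim Galore, DESeq2 and hg38 are named per the submitters' processing notes, and the program that estimated the counts is not given in the sources used here. Transcripts were matched by identifier to GENCODE release 29 genes (158326 matched, 81.6%), which held 91.0% to 91.6% of the reads, and the others were left out. Per gene, the deposited estimated counts were summed and rounded. Each experiment was fitted on its 6 libraries with edgeR 4.0.16 in R 4.3.3 (filterByExpr, minimum count 10, TMM, robust quasi-likelihood test), with Benjamini-Hochberg adjustment over all genes tested and a threshold of 0.05; SE is the log2 fold change divided by the square root of F. CPM use the TMM factors of each experiment, so CPM of the 2 experiments are not on one scale. For sums, the members were replaced by summed rows. Models whose length differs from release 29 (68 of 94) were put in the short class if protein-coding and up to 800 bases long. The others were to join it if the stem-loop lay within 50 bases of the end, a case that did not occur. Full values are given for the 2 members with most reads of each type, the 5 largest called changes of each experiment and the 2 largest differences on each side; of each list up to 3 called genes, SLBP and NPAT, POLR3A, and a few members that show the range, chosen after their values were seen. Alternatives were other scalings, filters, DESeq2 1.42.0, limma 3.58.1 on log2(TPM + 0.1), neighbouring transcripts, all 12 libraries, a replicate block, and each library left out. The fits were tested on simulated data. Members and lists were chosen with earlier results of these data known. Replicate numbers did not pair samples. The count behind a value limits its precision: members averaging under 10 reads (36 of 69) were mostly untested. Floors cover counting error only.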

Additional observations from a re-analysis of the deposited data

Results flagged for a closer look

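The effects of the 2 experiments differed, by the contrast of effects in the edgeR fit of 12 libraries, for 4 sums of histone genes. The siPOLR3A effect minus the ML60218 effect was −0.446 for H2A, −0.5159 for H2B, −2.254 for H4 and −1.055 for the sum over all members, each on the log2 scale. Fitted on its own 6 libraries, each experiment was called for H4 and for the sum of all members, lower after siPOLR3A and higher with ML60218; in the fit of 12 libraries the siPOLR3A effect was not called for either (adjusted p = 0.155 and 0.0563). In the fits of 6 libraries the H2B sum was called only after siPOLR3A and the H2A sum in neither. Depth of the ML60218 libraries, at 38776830 to 47419282 reads, overlapped that of the siPOLR3A libraries, at 37070635 to 41574437.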

How the results depend on the processing

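Over 909 alternatives for single members and copy pairs, 862 left the call as reported, 35 ended a call, 12 made one and 0 turned a called direction. Uncalled values that changed sign counted as unchanged, as for H1-2 with ML60218, which ran from −0.07 to 0.13. For sums and counts, 361 of 392 were unchanged. A modest shift in the number of calls, such as from 9 to 10 for the difference between effects, also counted as unchanged. With limma on log2 TPM, which tested more members, 11 were called after siPOLR3A (3 higher, 8 lower) and 11 with ML60218 (10 higher, 1 lower). Without 1 library, the calls with ML60218 numbered 4 to 11, and log2 fold changes with ML60218 ran from 0.13 to 0.39 for H2A, from 1.37 to 1.97 for H4, from 0.98 to 1.49 for the extended class and from 0.48 to 0.80 for the sum over all members; the difference between effects for H3 ran from −0.41 to −0.18. The H2A sum with ML60218 was called with DESeq2 (0.30) and in the fit of 12 libraries (0.30, adjusted p = 0.0208). With no filter the sum over all members was 0.68 with ML60218 (adjusted p = 0.0846). In the fit of 12 libraries the siPOLR3A values were −0.51 for H4 (adjusted p = 0.155), −0.52 for the extended class (adjusted p = 0.0895) and −0.37 for the sum over all members (adjusted p = 0.0563). Without H4C14 and H4C15, H4 stood at −0.0063 with ML60218 and −0.032 after siPOLR3A, and the sum over all members at 0.10 with ML60218. Without H2BC12, the short class stood at −0.070 after siPOLR3A and H2B at 0.42 with ML60218. The cause of these changes was not tested.

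Same-numbered libraries did not vary together (correlations of −0.07 to 0.07), so the numbers were not taken as pairs. By the same rule as for the other alternatives, a replicate block left 75 of 81 results unchanged. It gave 6 calls after siPOLR3A (0 higher) and 6 with ML60218, and 10 for the difference. With the block and ML60218 the H2A sum was called (0.28, adjusted p = 0.0439) and the extended class was not (1.24, adjusted p = 0.0612), nor were H4C14, H4C15 and their sum; H2BC4 was not called after siPOLR3A.

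Depth limits the members below 10 reads a library, most of which had too few reads to be tested.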

Other observations

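Some histone pseudogenes, which lie outside the rule, had reads too. H2BC20P, a transcribed pseudogene of the H2B family with a mean of 55.6 reads a library, had a log2 fold change of 0.81 with ML60218 (adjusted p = 0.0151) and −0.04 after siPOLR3A (adjusted p = 0.903). H2BC19P, with a mean of 15.4 reads, had −1.27 with ML60218 (adjusted p = 0.0149) and 0.12 after siPOLR3A (adjusted p = 0.927). Both were named after their values were seen.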
